A study of Rattus norvegicus with 10 samples.

Results

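When a round spermatid turns into a sperm head, most of its histones are removed from the DNA and replaced with protamines, by way of transition proteins. Marks on the histones prepare this step. Acetyl groups on histone H4 loosen the nucleosome and are bound by a bromodomain protein, remodelling enzymes shift nucleosomes, and ubiquitin ligases mark histones. The 10 genes described here belong to this machinery and were taken by gene symbol. They are the acetyltransferases Kat8 and Kat5, the subunits Ep400 and Epc1 that share a complex with Kat5, the deacetylase Sirt1, the acetyl-lysine reader Brdt, the remodeller Chd5, the ubiquitin ligases Phf7 and Rnf8, and Mdc1, which brings Rnf8 to chromatin at DNA breaks. Most of what is known of their part in spermatids comes from mouse mutants. All 10 were found, each once, among the 32545 genes of the deposited files.

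The samples were round spermatids, the haploid cells that follow meiosis, from wild-type Brown Norway rats. There were 5 aged samples (18 to 20 months) and 5 young samples (4 to 6 months), all kept under normal conditions. The cells were separated from the testis by sedimentation (STA-PUT), so each sample is an enriched fraction. Libraries were made with a SMARTer mRNA kit from 1.3 µg of total RNA. Nothing in the labels says if a sample is its own animal, so the p-values describe only how far these samples scatter. Levels are in FPKM, fragments scaled to gene length and to a library size, so different genes can be set side by side. That library size was not the plain fragment total. It was 0.966 (young replicate 5) to 1.025 (aged replicate 2) times the total.

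The cell label was checked against marker genes. All 12 round spermatid markers were above 1 FPKM on average, with summed levels of 2779 to 3204 FPKM in aged and 2581 to 3196 FPKM in young libraries. Pgk2 was the highest of them by mean level. Of the 12, 9 were higher and 3 lower in aged samples, with a median log2 difference of 0.08. At an unadjusted p under 0.05 there was 1, higher, beside 5.54% of all genes tested on the higher side. All 12 elongating spermatid and all 16 spermatocyte markers also averaged 1 FPKM or more, so that level does not tell the stages apart. Markers of testis somatic cells were low, but higher in aged libraries for 7 of 8 Sertoli, 4 of 4 Leydig, 10 of 11 peritubular and 11 of 13 macrophage markers tested. Their summed levels in aged against young libraries were 41.0 to 157 against 35.2 to 45.9 FPKM (Sertoli) and 11.8 to 127 against 6.05 to 9.65 FPKM (Leydig). They were 105 to 272 against 68.0 to 103 FPKM (peritubular) and 29.3 to 143 against 23.5 to 38.6 FPKM (macrophage). On the higher side, 2 Sertoli, 2 Leydig, 7 peritubular and 7 macrophage markers had an unadjusted p under 0.05. On the lower side were 2 macrophage markers, and 11.9% of all genes tested reached that level. The ages did not overlap for 1 Sertoli, 2 Leydig, 6 peritubular and 0 macrophage markers, beside 2.6% of all genes tested. After adjustment 0 of these markers passed. Defining markers such as Sox9 and Amh of Sertoli cells and Star and Cyp11a1 of Leydig cells averaged under 1 FPKM. The Leydig marker Insl3 did not. It averaged 29.7 ± 34.2 FPKM in aged and 3.31 ± 0.754 FPKM in young samples (SD, n = 5), with 86.4 FPKM in aged replicate 2. Endothelial markers summed to 7.71 to 12.1 FPKM in aged and 6.13 to 7.88 FPKM in young libraries, with Cldn5 at 0 in all. Of the 3 tested, 1 was higher and 2 were lower in aged samples. Erythroid markers summed to 4.74 to 20.1 FPKM in aged and 2.58 to 7.02 FPKM in young libraries. Spermatogonial markers were higher for 4 of 8 tested (51.8 to 59.6 FPKM in aged, 49.1 to 69.6 FPKM in young libraries). Elongating spermatid markers were higher for 1 of 12 (31475 to 40409 FPKM in aged, 31545 to 50504 FPKM in young libraries). The sums of different lists give no shares of cells. Spermatocyte markers were lower for 14 of 16, beside 54.5% of all genes tested, with a median log2 difference of -0.20. At an unadjusted p under 0.05 there were 5, all lower, beside 6.35% of all genes tested on the lower side. The 16 spermatocyte markers summed to 310.0 to 391 FPKM in aged and 343 to 438 FPKM in young libraries.

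The 10 genes differed widely in level and, but for Chd5 and Kat5, kept their order from library to library. Phf7 stood at 1302 to 1455 FPKM and ranked 19 of all genes by mean level. Sirt1 stood at 2.23 to 3.19 FPKM and ranked 9506. Between them came, by mean FPKM over the 10 libraries, Kat8 (225 FPKM), Brdt (115 FPKM), Chd5 (62.4 FPKM) and Kat5 (57.5 FPKM). They were followed by Mdc1 (29.6 FPKM), Ep400 (19.6 FPKM), Epc1 (12.03 FPKM) and Rnf8 (5.70 FPKM). Of the 9 pairs of neighbours in this order, 8 had the same gene higher in 10 of 10 libraries, by 1.51-fold (Mdc1 over Ep400) to 6.14-fold (Phf7 over Kat8). Each of the 8 had an exact two-sided sign-flip permutation p of 0.00195, the smallest that 10 libraries can give (adjusted p = 0.0022 over the 9 pairs). The order was set on these same libraries, so this p adds nothing to the count of 10 of 10. The exception was Chd5 and Kat5. Chd5 was higher in 8 libraries, and the mean log2 ratio of 0.12 was within its spread (SD 0.25, exact permutation p = 0.176, adjusted p = 0.176). Without young replicate 1, where Kat5 was highest and Chd5 lowest of all libraries, 9 pairs passed.

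**Figure D1:**
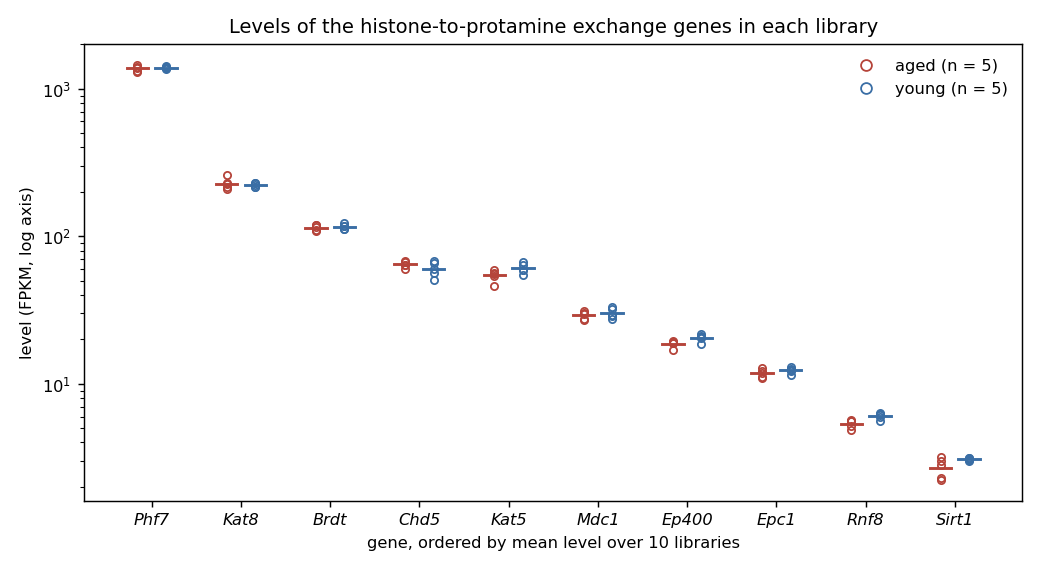
Level of each of the 10 exchange genes (FPKM, log axis) in every library, aged to the left and young to the right; open circles are libraries and bars the group mean (n = 5 each). The genes run from a mean of 1382 FPKM for Phf7 down to 2.89 FPKM for Sirt1, and the circles of both ages overlap for every gene.

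The promoters of the highest pair and the lowest pair in this order are printed here, to set the ends of the range side by side. The letters are those of RefSeq on GRCr8, 250 bases before to 50 bases after the annotated start, read 5′ to 3′ on the strand of the gene. The windows are Phf7 at chr16:6452622-6452921 on the minus strand, Kat8 at chr1:191954577-191954876 on the plus strand, Rnf8 at chr20:7683715-7684014 on the plus strand and Sirt1 at chr20:25305703-25306002 on the plus strand. The deposited files place Sirt1 on the minus strand of another build. Of the 10 genes, 9 matched this table by symbol, and Mdc1 did not. Capitals mark matches to 4 motifs on either strand, with overlaps allowed. The core of a cAMP response element was searched as TGACG. The CCAAT box was searched by the letters of its name. For the GC box the letters were GGGCGG. An E-box was searched as CACGTG.
Phf7: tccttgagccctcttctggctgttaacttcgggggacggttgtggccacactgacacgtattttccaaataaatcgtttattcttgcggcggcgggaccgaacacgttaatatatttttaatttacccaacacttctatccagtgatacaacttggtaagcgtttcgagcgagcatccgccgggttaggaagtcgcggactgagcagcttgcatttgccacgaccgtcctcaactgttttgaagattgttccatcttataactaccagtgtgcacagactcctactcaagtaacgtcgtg
Kat8: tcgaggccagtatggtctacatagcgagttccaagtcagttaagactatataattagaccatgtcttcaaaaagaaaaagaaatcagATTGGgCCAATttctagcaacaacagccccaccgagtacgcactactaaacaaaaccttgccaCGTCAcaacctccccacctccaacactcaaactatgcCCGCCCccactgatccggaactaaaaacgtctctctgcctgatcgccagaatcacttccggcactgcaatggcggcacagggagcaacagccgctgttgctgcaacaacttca
Rnf8: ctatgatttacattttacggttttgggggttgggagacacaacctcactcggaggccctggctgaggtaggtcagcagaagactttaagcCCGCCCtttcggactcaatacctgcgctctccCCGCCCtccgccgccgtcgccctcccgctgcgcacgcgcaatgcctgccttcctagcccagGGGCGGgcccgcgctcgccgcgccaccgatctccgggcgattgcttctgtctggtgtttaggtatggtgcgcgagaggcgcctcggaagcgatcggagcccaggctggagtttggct
Sirt1: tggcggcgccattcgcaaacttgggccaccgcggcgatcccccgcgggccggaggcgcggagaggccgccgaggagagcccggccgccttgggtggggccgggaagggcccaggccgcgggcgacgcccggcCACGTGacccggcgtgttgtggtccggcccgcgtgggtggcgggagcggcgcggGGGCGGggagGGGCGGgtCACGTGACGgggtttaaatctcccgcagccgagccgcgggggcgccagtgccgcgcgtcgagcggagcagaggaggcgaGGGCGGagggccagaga

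The Phf7 window held none of these motifs (0 matches). Kat8 had 2 CCAAT boxes, 1 GC box and 1 cAMP element core, and Rnf8 had 3 GC boxes. Sirt1 had 3 GC boxes and 2 E-boxes, of which the one nearer the start overlapped a cAMP element core. Over the 9 genes, 7 windows held a GC box, as did 33.1% of all 33469 promoters of this length. A CCAAT box was in 4 (37.5% of all), a cAMP element core in 3 (21.2%) and an E-box in 3 (6.42%). CG pairs numbered 12 (Kat8) to 47 (Sirt1) per window, against a median of 7 over all promoters. The share of G and C was 47.7% in Phf7 and 49.0% in Kat8, below the median of 51.7%, and 78.7% in Sirt1 and 82.3% in Chd5. A match of letters is a description and no measure of binding.

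No exchange gene passed the test between aged and young spermatids. All 10 were tested with limma, a linear model fitted here across all 12985 genes averaging 1 FPKM or more, on log2(FPKM + 1) values. That scale understates differences of low genes. At an adjusted p under 0.05, 0 of the 10 were called, as were 0 of all genes tested (0%). The 95% intervals over the 10 genes reached, in FPKM + 1, from 0.791-fold (Sirt1) to 1.21-fold (Chd5). At an unadjusted p under 0.05 there were 3, Kat5, Ep400 and Rnf8, all lower in aged samples. Among all genes tested 11.9% reached that level, 6.35% on the lower and 5.54% on the higher side. The ages did not overlap for 0 of the 10 genes, against 2.6% of all genes tested. In direction, 8 of the 10 were lower and 2 higher in aged samples, where 54.5% of all genes tested were lower. They split 6 lower and 4 higher with voom on recovered fragments, and 5 and 5 with the mean of the somatic markers as a covariate. Their median was -0.05, against -0.02 over all genes tested. The 3 genes at an unadjusted p under 0.05 became 0 after TPM scaling, with voom, with the mean of the somatic or of the spermatocyte markers as a covariate, without both aged replicates 1 and 2, and without young replicate 2, 3 or 4. After TPM scaling Kat5, Ep400 and Rnf8 were at -0.15, -0.12 and -0.15 on the log2 scale, and with voom at -0.14, -0.11 and -0.15. With the spermatocyte covariate they were at -0.05, -0.11 and -0.16. Over all genes tested, 1544 had an unadjusted p under 0.05 in the main fit, 601 with the somatic and 983 with the spermatocyte covariate. The mean of the somatic markers was -0.13 to 1.34 in aged and -0.54 to -0.09 in young libraries, in log2 units relative to all libraries. It nearly parts the ages, so a fit with this covariate cannot tell age from somatic content. In bulk samples, fewer cells of a type and less RNA per cell cannot be told apart.

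**Figure D2:**
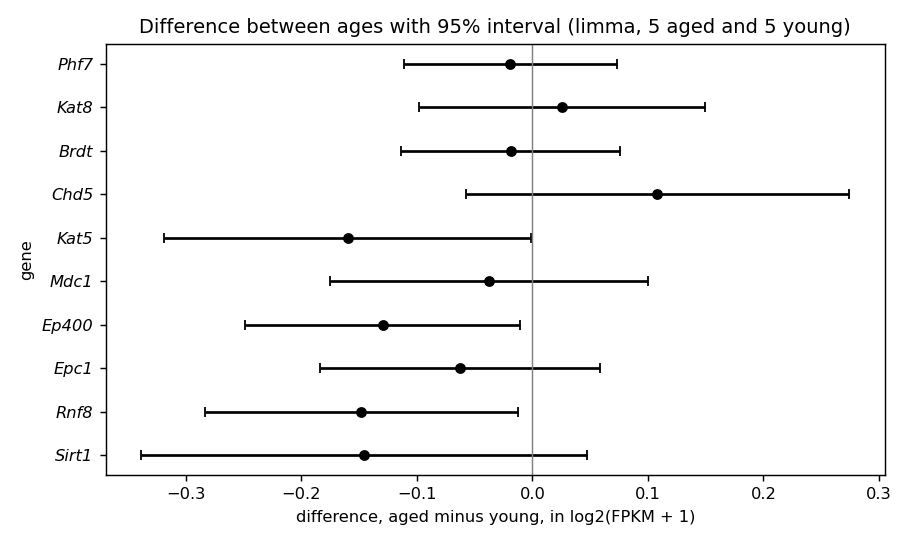
Difference between ages of each exchange gene in log2(FPKM + 1), aged minus young, with the 95% interval of limma (5 aged and 5 young libraries). Kat5, Ep400 and Rnf8 have intervals below 0 before adjustment over all genes, and the other 7 intervals span 0.

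Kat8, also called MOF, acetylates lysine 16 of histone H4 (ENSRNOG00000019585, chromosome 1, 199360645 to 199372923, plus strand in the files' coordinates, of a build not named in the labels or headers). It stood at 210.1, 215, 225, 229 and 259 FPKM in aged libraries 1 to 5, against 215, 231, 223, 215 and 231 FPKM in young libraries 1 to 5. All young values lay inside the aged range, whose ends were aged replicates 1 and 5. The means were 228 ± 19.2 FPKM in aged and 223 ± 8.04 FPKM in young samples (SD, n = 5 per age, as for every mean ± value given for an age). Aged minus young, the log2 difference was 0.03 (SE 0.06), with a 95% interval of -0.10 to 0.15 (limma, adjusted p = 0.86). It was -0.02 without aged replicate 5, and 0.09 with the somatic markers as a covariate.

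Kat5, also called TIP60, is the acetyltransferase of the TIP60/NuA4 complex and acts on histones H4 and H2A (ENSRNOG00000061012, chromosome 1, 220967796 to 220974597, minus strand). Its values were 46.4, 54.0, 56.7, 59.1 and 55.3 FPKM in aged libraries 1 to 5, against 67.4, 63.6, 58.9, 59.2 and 54.7 FPKM in young libraries 1 to 5. The lowest was that of aged replicate 1 and the highest that of young replicate 1. All 5 aged values were below the young mean, while young replicates 3 and 5 lay within the aged range. The means were 54.3 ± 4.84 FPKM in aged and 60.8 ± 4.86 FPKM in young samples (SD). Aged minus young, the log2 difference was -0.16 (SE 0.07), with a 95% interval of -0.32 to just below 0 (limma, unadjusted p = 0.0488, adjusted p = 0.42). The difference was -0.09 without both aged replicates 1 and 2, -0.08 with the somatic markers as a covariate and -0.05 with the spermatocyte markers as a covariate (unadjusted p = 0.481, limma). Kat5 overlaps Rnaseh2c on the other strand by 30 bases in the files, and Rnaseh2c averaged 5.52 FPKM. Whether counting used strand is not stated, so fragments there cannot be assigned.

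Ep400 is a large ATPase of that complex, which exchanges H2A variants (ENSRNOG00000037483, chromosome 12, 51948650 to 52055271, plus strand). Its levels were 19.2, 18.9, 19.0, 19.4 and 17.0 FPKM in aged libraries 1 to 5, against 21.7, 20.8, 21.0, 20.5 and 18.7 FPKM in young libraries 1 to 5. Young replicate 5 lay among the aged values, the other young values were above all aged ones, and aged replicate 5 was the lowest. The means were 18.7 ± 0.964 FPKM in aged and 20.5 ± 1.15 FPKM in young samples (SD). The log2 difference was -0.13 (SE 0.05), with a 95% interval of -0.25 to -0.01 (limma, unadjusted p = 0.0355, adjusted p = 0.396). With the somatic markers as a covariate the difference was -0.13.

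Epc1 is a scaffold subunit that mouse spermatids need, together with Kat5, for H4 hyperacetylation (ENSRNOG00000014834, chromosome 17, 57304933 to 57394985, minus strand). It was measured at 11.8, 10.96, 12.1, 12.7 and 11.1 FPKM in aged libraries 1 to 5, against 12.5, 12.3, 12.2, 13.0 and 11.5 FPKM in young libraries 1 to 5. The ages were mixed. The means were 11.8 ± 0.723 FPKM in aged and 12.3 ± 0.529 FPKM in young samples (SD). Aged minus young, the log2 difference was -0.06 (SE 0.06), with a 95% interval of -0.18 to 0.06 (limma, adjusted p = 0.631). With the spermatocyte markers as a covariate it was -0.03. A gene annotated as a miRNA, AABR07028106.1, lies in Epc1 on the same strand and averaged 66.1 FPKM in aged and 75.1 FPKM in young samples, so fragments shared by both are uncertain.

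Sirt1 removes acetyl groups from histones and other proteins with NAD as cofactor (ENSRNOG00000051592, chromosome 20, 26833357 to 26852199, minus strand). Its values were 2.29, 2.80, 2.23, 3.19 and 3.01 FPKM in aged libraries 1 to 5, against 3.09, 3.14, 2.99, 3.12 and 3.05 FPKM in young libraries 1 to 5. The young libraries lay close together. Among the aged ones, replicates 1, 2 and 3 were below all young values and replicate 4 was the highest of all. The means were 2.70 ± 0.432 FPKM in aged and 3.08 ± 0.0591 FPKM in young samples (SD). The log2 difference was -0.15 (SE 0.09), with a 95% interval of -0.34 to 0.05 (limma, adjusted p = 0.497). With the spermatocyte markers as a covariate it was -0.04. The coefficient of variation was 15.98% in aged and 1.92% in young samples. Sirt1 rested on 100 to 143 fragments per library, for which counting alone gives about 8.99%, more than the young spread.

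Brdt, the testis member of the BET family, binds acetylated H4 with its bromodomains (ENSRNOG00000002073, chromosome 14, 3405995 to 3462629, minus strand). It stood at 108, 111, 120.1, 116 and 118 FPKM in aged libraries 1 to 5, against 113, 123, 117, 117 and 111 FPKM in young libraries 1 to 5. Aged replicate 1 was lowest and young replicate 2 highest, with the rest mixed. The means were 115 ± 5.14 FPKM in aged and 116 ± 4.45 FPKM in young samples (SD). On the log2 scale the ages differed by -0.02 (SE 0.04), with a 95% interval of -0.11 to 0.08 (limma, adjusted p = 0.865).

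Chd5 is a chromodomain remodeller without which mouse spermatids compact their chromatin poorly (ENSRNOG00000011268, chromosome 5, 169519212 to 169567107, plus strand). Its levels were 68.2, 63.7, 66.9, 60.2 and 64.2 FPKM in aged libraries 1 to 5, against 50.5, 66.0, 67.7, 56.4 and 60.3 FPKM in young libraries 1 to 5. Young replicates 1 and 4 were the lowest libraries, and the other 3 young values lay within the aged range. The means were 64.6 ± 3.11 FPKM in aged and 60.2 ± 7.05 FPKM in young samples (SD). The log2 difference was 0.11 (SE 0.08), with a 95% interval of -0.06 to 0.27 (limma, adjusted p = 0.55). It was 0.05 without young replicate 1, and 0.02 with the spermatocyte markers as a covariate.

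Phf7 puts ubiquitin on histones in mouse spermatids and is tied there to the stability of Brdt (ENSRNOG00000018996, chromosome 16, 7323520 to 7336335, minus strand). It was the most abundant of the 10, at 1302, 1325, 1410.3, 1374 and 1455 FPKM in aged libraries 1 to 5, against 1352, 1402, 1385, 1386 and 1428 FPKM in young libraries 1 to 5. Aged replicates 1 and 2 were below all young libraries and aged replicate 5 above them. The means were 1373 ± 62.1 FPKM in aged and 1391 ± 27.8 FPKM in young samples (SD). The log2 difference was -0.02 (SE 0.04), with a 95% interval of -0.11 to 0.07 (limma, adjusted p = 0.858). The sign turned with quantile normalization (0.04). The SD within an age on the log2 scale was 0.05 for Phf7, the smallest of the 10, and at most 0.13 (Chd5), against a median of 0.14 over all genes tested.

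Rnf8 ubiquitinates histones H2A and H2B, and its need for histone removal in mouse spermatids has been debated (ENSRNOG00000047171, chromosome 20, 8285296 to 8309908, plus strand). It was measured at 4.83, 5.56, 5.58, 5.15 and 5.66 FPKM in aged libraries 1 to 5, against 5.62, 6.11, 6.21, 6.32 and 5.94 FPKM in young libraries 1 to 5. Of the 5 aged values, 4 were below every young value, and aged replicate 5 was just above young replicate 1. The means were 5.36 ± 0.353 FPKM in aged and 6.04 ± 0.272 FPKM in young samples (SD). On the log2 scale the ages differed by -0.15 (SE 0.06), with a 95% interval of -0.28 to -0.01 (limma, unadjusted p = 0.0351, adjusted p = 0.396). Rnf8 rested on 185 to 230 fragments per library, for which counting alone gives about 7.04%. That is more than its coefficient of variation of 6.59% in aged and 4.51% in young samples. With the somatic markers as a covariate the difference was -0.14.

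Mdc1 binds phosphorylated H2AX and recruits Rnf8 (ENSRNOG00000032813, chromosome 20, 3404711 to 3419831, minus strand). Its values were 31.4, 27.7, 30.1, 27.2 and 29.8 FPKM in aged libraries 1 to 5, against 28.7, 32.0, 33.2, 29.1 and 27.3 FPKM in young libraries 1 to 5. The ages were mixed, with young replicate 3 highest and aged replicate 4 lowest. The means were 29.2 ± 1.76 FPKM in aged and 30.1 ± 2.43 FPKM in young samples (SD). On the log2 scale the ages differed by -0.04 (SE 0.06), with a 95% interval of -0.18 to 0.10 (limma, adjusted p = 0.814).

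**Figure D3:**
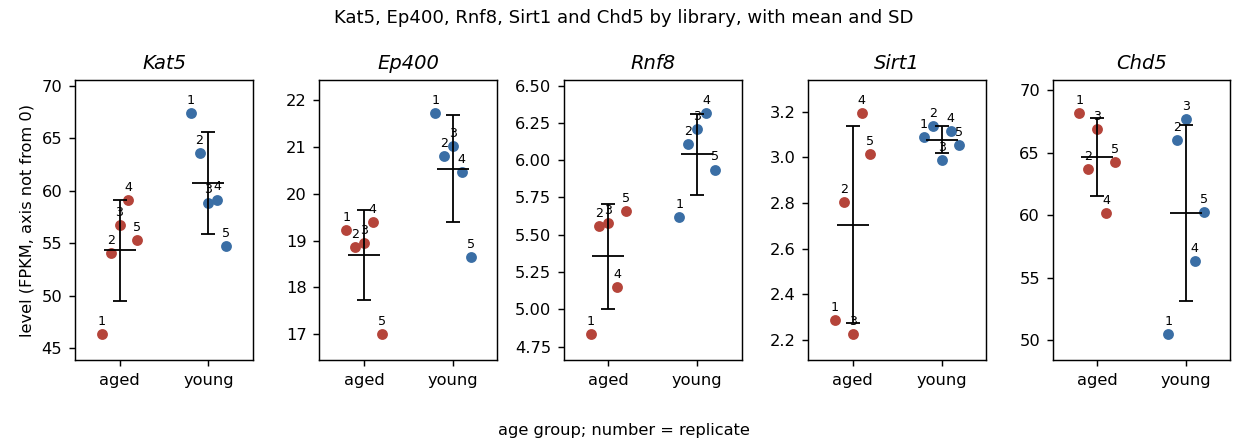
Level in FPKM (axes not from 0) of the 5 exchange genes with the smallest p, by library, aged left and young right; digits are replicate numbers and black bars the mean and SD (n = 5). Of the aged Rnf8 values 4 lie below all young ones, and the aged Sirt1 values spread from 2.23 to 3.19 FPKM around the closely set young values.

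Ratios within a library do not depend on how libraries are scaled. The 6 compared here join genes that share a complex, a mark or a pathway. Phf7 to Rnf8, both ligases, was 257 ± 12.4 in aged and 231 ± 9.75 in young samples (SD, n = 5), a difference of 0.16 on the log2 scale, exact permutation p = 0.0238, adjusted p = 0.127 over the 6 ratios. The lowest aged ratio, in replicate 2, was below the 2 highest young ones, and the other 4 aged ratios were above all young ones. Sirt1 to Kat8, which remove and add acetyl groups, was 0.0119 ± 0.0016 in aged and 0.0138 ± 0.0006 in young samples (SD, n = 5), a difference of -0.23 on the log2 scale, exact permutation p = 0.0476, adjusted p = 0.127 over the 6 ratios. Kat5 to Kat8 was 0.239 ± 0.0205 in aged and 0.273 ± 0.0278 in young samples (SD, n = 5), a difference of -0.19 on the log2 scale, exact permutation p = 0.0635, adjusted p = 0.127 over the 6 ratios. Rnf8 to Mdc1 was 0.184 ± 0.0176 in aged and 0.202 ± 0.0145 in young samples (SD, n = 5), a difference of -0.14 on the log2 scale, exact permutation p = 0.143, adjusted p = 0.171 over the 6 ratios. Within the TIP60 complex, Epc1 to Ep400 was 0.629 ± 0.0312 in aged and 0.600 ± 0.0240 in young samples (SD, n = 5), a difference of 0.07 on the log2 scale, exact permutation p = 0.143, adjusted p = 0.171 over the 6 ratios. Kat5 to Ep400 was 2.91 ± 0.314 in aged and 2.96 ± 0.123 in young samples (SD, n = 5), a difference of -0.03 on the log2 scale, exact permutation p = 0.81, adjusted p = 0.81 over the 6 ratios. After adjustment 0 of the 6 passed, and the ages overlapped in each. By the exact permutation test, Phf7 to Rnf8 passed without aged replicate 2 and Sirt1 to Kat8 without aged replicate 4 (adjusted p = 0.0476 each). The libraries left out held the lowest aged Phf7 to Rnf8 ratio and the highest aged Sirt1 to Kat8 ratio. Each was the aged value most against the difference, so leaving it out favours a pass.

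**Figure D4:**
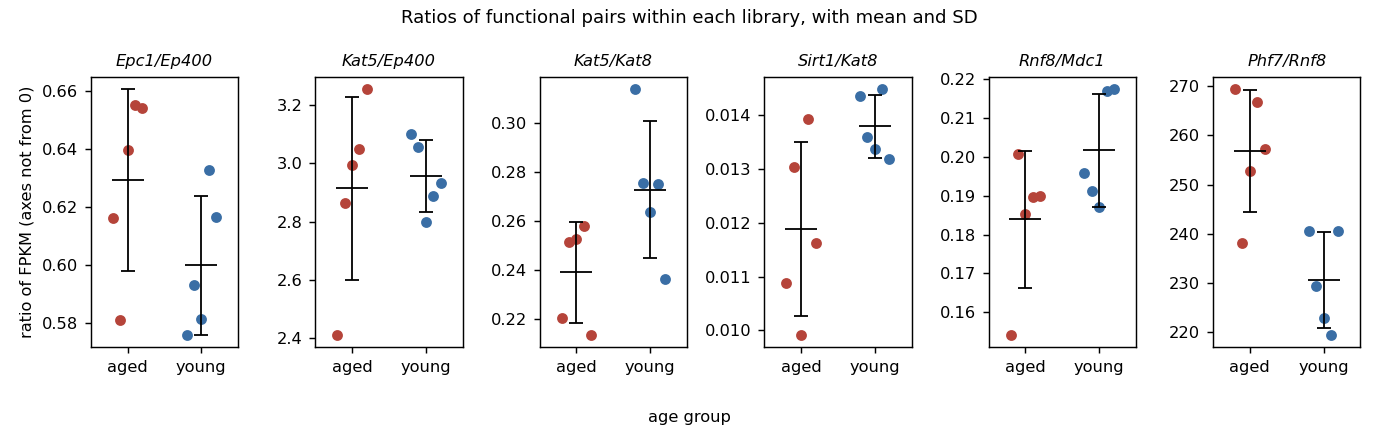
Ratio of FPKM of 6 functional pairs in each library (axes not from 0), aged left and young right, with mean and SD in black (n = 5 each). Phf7/Rnf8 lies at 238 to 269 in aged and 219 to 241 in young libraries, and the ages overlap in every panel.

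A few of the 10 genes were set beside relatives. Epc1 was above Epc2 in 10 of 10 libraries, by 7.98-fold on average. Brdt was above the widely expressed BET gene Brd2 (45.1-fold) in 10 of 10. It was below Brd3 in 10 of 10, which averaged 195 ± 10.3 FPKM in aged and 190.1 ± 3.37 FPKM in young samples. Chd5 was above Chd3 (3.49-fold) and Chd4 (1.61-fold) in 10 of 10. Kat5 and the MYST enzyme Kat7 lay close together, with Kat5 higher in 4 of 10 libraries. Sirt1 was below Sirt2, a mainly cytoplasmic deacetylase that averaged 358 ± 24.9 FPKM in aged and 338 ± 17.2 FPKM in young samples, in 10 of 10.

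The complexes and pathways around the 10 genes were described from 10 lists, which held 94 further tested genes. Of these, 63 were lower and 31 higher in aged samples, with a median of -0.04 on the log2 scale. After adjustment 0 passed. At an unadjusted p under 0.05 there were 14 (14.9%, beside 11.9% of all genes), 10 lower and 4 higher.

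In the TIP60/NuA4 complex, 17 of 18 listed subunits were tested, 10 lower and 7 higher. The balance turned to 7 lower and 10 higher with the spermatocyte covariate or without both aged replicates 1 and 2, and to 8 and 9 with the somatic covariate or without aged replicate 1. The chromodomain subunit Morf4l1 averaged 1009 ± 42.4 FPKM in aged and 994 ± 40.4 FPKM in young samples. The acetyl reader Yeats4 averaged 233 ± 15.7 FPKM in aged and 237 ± 8.98 FPKM in young samples. The scaffold Trrap was at 3.20 ± 0.317 FPKM in aged and 3.22 ± 0.583 FPKM in young samples. Its entry is annotated as a processed transcript and not as protein-coding. Besides Kat5 and Ep400, an unadjusted p under 0.05 was reached by Dmap1 (log2 difference 0.25, SE 0.08, limma adjusted p = 0.319) and the bromodomain subunit Brd8 (log2 difference -0.30, SE 0.13, adjusted p = 0.418). At that level were 3 lower and 1 higher of the 17, beside 6.35% and 5.54% of all genes tested. After TPM scaling or with the somatic covariate there were 0 lower and 1 higher. The complexes of Kat8 had 7 of 11 tested members lower and 0 at that level, with the scaffold Msl1 at 131 ± 4.13 FPKM in aged and 134 ± 4.27 FPKM in young samples. Among the 5 MYST enzymes 4 were lower, with Kat7 at 55.2 ± 6.66 FPKM in aged and 67.3 ± 12.2 FPKM in young samples. Of the 4 BET genes, 2 were lower and 2 higher, and Brd2 had a log2 difference of 0.46 (SE 0.19, limma adjusted p = 0.391). Of 9 tested Chd genes 5 were lower, and 0 had an unadjusted p under 0.05.

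The list around Rnf8, which also holds DNA break signalling, had 14 of 15 tested members lower in aged samples, 12 after TPM scaling, quantile normalization or voom, 11 without aged replicate 1, and 8 with the somatic covariate. Its median was -0.07, against -0.02 over all genes tested, of which 54.5% were lower. At an unadjusted p under 0.05 there were 6, all lower, beside 6.35% of all genes tested on the lower side. Beside Rnf8 these were Rnf168, the ligase that extends its marks (log2 difference -0.28, SE 0.10), Herc2, a ligase that assists Rnf8 (log2 difference -0.19, SE 0.07), and Tp53bp1, a reader of the H2A mark (log2 difference -0.23, SE 0.08). The others were Atm, the kinase upstream of Mdc1 (log2 difference -0.25, SE 0.08), and L3mbtl2 (log2 difference -0.24, SE 0.11). Their limma adjusted p values were 0.327 to 0.412. The ubiquitin-conjugating enzyme Ube2n averaged 164 ± 10.1 FPKM in aged and 173 ± 31.0 FPKM in young samples, and the complex member Bre 32.1 ± 2.01 FPKM in aged and 32.2 ± 1.49 FPKM in young samples. That break repair genes tend lower here was known from these samples before, so the count is no independent support. With the mean of the spermatocyte markers as a covariate, 0 of the 15 were at an unadjusted p under 0.05 on the lower side and 1 on the higher, while 12 of 15 were lower and the median was -0.08. With the somatic markers as a covariate there was 1 lower at that level, with a median of -0.07. Without both aged replicates 1 and 2 there were 2, with a median of -0.05. Over all genes tested, those lower at that level numbered 825 in the main fit and 576 with the spermatocyte covariate. They numbered 322 with the somatic covariate and 493 without both aged replicates. The part of spermatocytes and somatic cells in the result was not tested further.

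**Figure D5:**
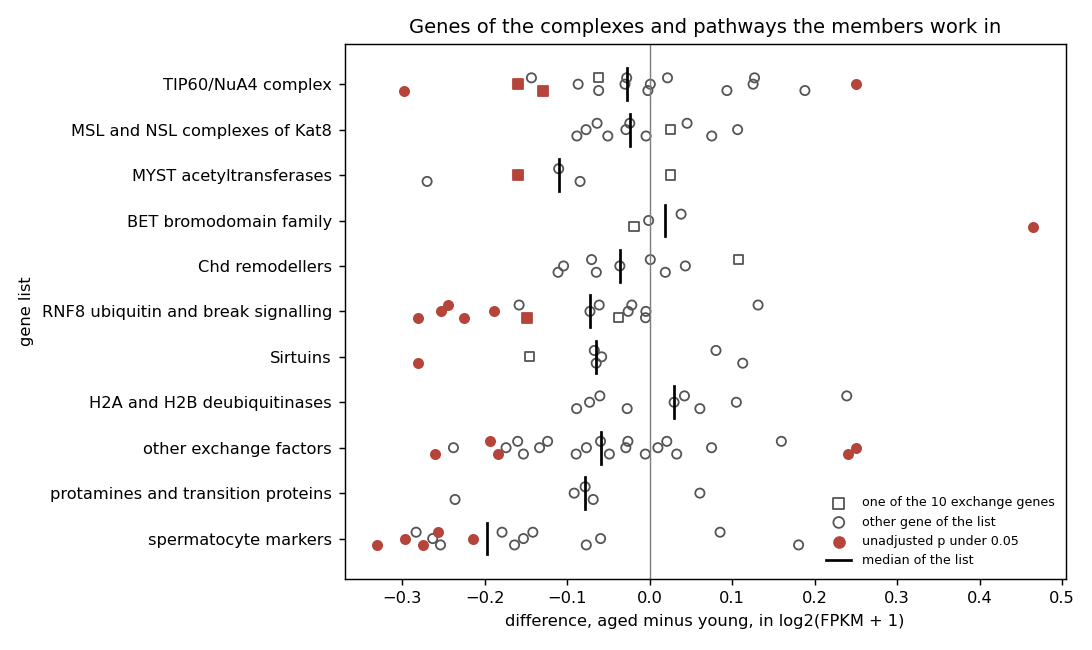
Difference in log2(FPKM + 1), aged minus young, of each tested gene in the 10 lists around the exchange machinery and in the spermatocyte markers; squares are the 10 exchange genes, filled red symbols have an unadjusted p under 0.05, and black bars are list medians. In the Rnf8 list 14 of 15 genes lie left of 0 (12 after TPM scaling, 8 with the somatic covariate). Among the spermatocyte markers 14 of 16 do (12 with the somatic covariate). Of all genes tested, not drawn, 54.5% were lower.

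Of 23 tested factors with other roles in the exchange, 16 were lower and 7 higher, and 12 and 11 with either marker covariate. An unadjusted p under 0.05 was reached by 5 of the 23, beside 11.9% of all genes tested. Kdm3a, a demethylase that activates transition protein and protamine genes in mouse, was the 1 of 94 partner genes whose ages did not overlap, beside 2.6% of all genes tested, at 33.3 ± 1.91 FPKM in aged and 38.2 ± 2.11 FPKM in young samples. Its log2 difference was -0.19 (SE 0.05, limma adjusted p = 0.319). The acetyltransferase Ep300 (log2 difference -0.18, SE 0.07) and the methyltransferase Setd2 (log2 difference -0.26, SE 0.10) were also on the lower side. Ccer1, a nuclear protein of the exchange in mouse spermatids, averaged 341 ± 20.1 FPKM in aged and 287 ± 25.5 FPKM in young samples (log2 difference 0.25, SE 0.07). Camk4, a kinase that phosphorylates protamine 2 in mouse, averaged 217 ± 18.2 FPKM in aged and 183 ± 13.5 FPKM in young samples (log2 difference 0.24, SE 0.07). For both the limma adjusted p was 0.319. The chaperone Hspa2 averaged 1216 ± 73.0 FPKM in aged and 1198 ± 37.6 FPKM in young samples, and the histone chaperone Nasp 655 ± 45.7 FPKM in aged and 668 ± 41.4 FPKM in young samples.

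Among 7 sirtuins 5 were lower, and mitochondrial Sirt3 had an unadjusted p under 0.05 (log2 difference -0.28, SE 0.11, limma adjusted p = 0.391). Of 9 deubiquitinases of H2A and H2B 5 were higher, and 0 reached that level. Usp7 averaged 200.2 ± 10.8 FPKM in aged and 186 ± 14.2 FPKM in young samples and Usp44 146 ± 6.91 FPKM in aged and 155 ± 6.95 FPKM in young samples. The products that the machinery serves, 5 protamine and transition protein genes, gave 4 lower and 1 higher, and 0 at an unadjusted p under 0.05. Prm1 averaged 10134 ± 1373 FPKM in aged and 12154 ± 3121 FPKM in young samples, 7.90-fold above Phf7, and Tnp2 averaged 5616 ± 380.2 FPKM in aged and 6022 ± 861 FPKM in young samples.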

How the data were processed

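Round spermatids of 5 aged and 5 young Brown Norway rat samples were sequenced from SMARTer mRNA libraries, per the labels' protocols. The deposited files hold FPKM values made by the authors, with 1 file per sample. HISAT2 2.0.5 and featureCounts 1.5.0-p3 are named in the submitters' processing notes. Their settings, their strand mode and the genome build were not stated in any source used here. Genes that overlap may therefore share or lose fragments.

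Whole fragments were recovered from FPKM and gene length (100% of values whole within 0.001). Libraries held 15992576 to 18203223 of them in aged and 14488222 to 17401744 in young samples, and 1 FPKM over 1 kilobase was 14.6 to 18.6 fragments. Counting errors do not cover amplification. Median-of-ratios scaling divides each library by its median ratio to the geometric mean over libraries. Applied to the deposited values it gave the log2 differences of the main fit again, so they already held such a scaling.

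Ages were compared with limma 3.58.1 in R 4.3.3 (lmFit, eBayes with trend) on log2(FPKM + 1), over 12985 genes averaging 1 FPKM or more. Tests were two-sided, with Benjamini-Hochberg adjustment over all of these genes and a threshold of 0.05. The script was tested on simulated data. Neighbours in level were compared by the 1024 sign flips of their log2 ratio, and ratios of genes by the 252 ways to assign 5 of 10 libraries to an age. The labels do not say whether replicate numbers pair the samples, and the main fit did not pair them. Deviations of same-numbered samples correlated at -0.16 to 0.05 and those of other pairs at -0.18 to 0.20. Such correlations cannot exclude a shared batch.

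Named were the 10 genes, and from each partner list the 2 most abundant tested genes and those at an unadjusted p under 0.05. From the round spermatid, elongating spermatid and Leydig marker lists the most abundant gene was named. Relatives of the 10 genes, Trrap and markers under 1 FPKM were chosen after their values were seen. Members and lists were chosen with earlier results of these data known. Promoters are from RefSeq (GRCr8). Alternatives were other pseudocounts, filters and scalings, voom, sample weights, marker covariates, a replicate block and left-out libraries. The spermatocyte covariate was chosen after seeing the data.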

Additional observations from a re-analysis of the deposited data

Results flagged for a closer look

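In 4 groups of 5 values, 1 library was farther from its group than the 95% limit of Dixon's test allows. For Ep400 it was aged replicate 5, at 17.0 FPKM, where the other aged libraries had 18.9 to 19.4 FPKM. For Rnf168, the ligase that acts after Rnf8, aged replicate 1 had 5.35 FPKM, and its group otherwise ranged over 7.48 to 8.03 FPKM. Usp7, a deubiquitinase, had 161 FPKM in young replicate 1, with 188 to 196 FPKM in the remaining young libraries. Tnp1, a transition protein gene, had 6879 FPKM in aged replicate 1, with 4414 to 4995 FPKM in the remaining aged libraries. Of 102 groups examined 4 were so marked, where chance marks about 1 in 20.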

How the results depend on the processing

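Exchange genes that passed numbered 0 under all 23 alternatives of the fit, the replicate block included. Median-of-ratios scaling, 1 of the 23, only repeated the main fit. It adds nothing to this count or to those below. All genes that passed numbered 0 to 1 over the fits without 1 library (1 without young replicate 1 and 1 without young replicate 2), and 0 otherwise. Exchange genes at an unadjusted p under 0.05 numbered 3 as reported and 0 to 3 elsewhere, with 1 under the replicate block (Ep400). Whether same-numbered samples share more than a number is not stated in the labels. Kat5, Ep400 and Rnf8 were lower in all 23 and kept an unadjusted p under 0.05 in 8, 11 and 11 of them. Signs turned for values near 0. The log2 difference of Brdt was 0.0420 with the somatic covariate, 0.00186 with the spermatocyte covariate, 0.00214 with voom, 0.0251 without both aged replicates 1 and 2, and -0.0357 to 0.00273 over the fits without 1 library. That of Phf7 was 0.0392 with quantile normalization, 0.0253 with the somatic covariate, 0.00220 with voom and 0.0228 without both aged replicates. Mdc1 was at 0.00246 with the somatic covariate, and Kat8 at -0.0220 to 0.0533 over the fits without 1 library. Kat5 to Ep400 was at 0.0680 without both aged replicates and -0.0682 to 0.0399 over the fits without 1 library. Ratios that passed numbered 0 to 1 over the fits without 1 library, and neighbouring pairs 8 to 9. The cause was not tested. Of all genes at an unadjusted p under 0.05, 46.6% were higher in aged samples as reported, 61.2% after TPM scaling and 61.4% with voom. Fragment numbers limit Sirt1 and Rnf8 most.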

Other observations

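Single libraries stood at the ends of several exchange genes at once. Aged replicate 1 was the lowest of the 10 libraries for 5 of the 10 genes, Phf7, Kat8, Brdt, Kat5 and Rnf8, and the highest for Chd5. Young replicate 1 was the highest for Kat5 and Ep400 and the lowest for Chd5, and aged replicate 5 the highest for Phf7 and Kat8 and the lowest for Ep400. Aged replicate 1 also had the lowest mean of the spermatocyte markers, at -0.23, and young replicate 1 the highest, at 0.25, in log2 units relative to the mean over libraries. For the somatic markers the mean was highest in aged replicate 2, at 1.34, followed by aged replicate 1, at 0.50.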
